A study of Mus musculus with 14 samples.

Results

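The comparison described here sets peritoneal cells of mice given SMD at 300 mg/kg before LPS against those of mice given LPS alone. It holds 6 of the study's 14 arrays, 3 in each group, and was made over 45037 probe sets once the array's control probe sets were left out, of which 27022 passed a filter on low signal and were tested. All animals were female F1 hybrids of C57Bl/6 x C3H aged 12 to 16 weeks and caged in groups of 5. The treated group received 50 µl of SMD on the nares under halothane 30 min before an intravenous dose of 60 µg of ultra pure LPS from S. minnesota per mouse, and its cells were collected 2.0 h after the LPS. The LPS group received the same LPS dose without SMD, and the labels give neither its harvest time nor whether it received a vehicle. Groups at 100 and 200 mg/kg SMD (3 arrays each, same LPS dose and harvest time) and 2 arrays from naive mice are used below for reference. The labels do not spell out what SMD stands for. They call the arrays of a group biological replicates without saying how many mice each holds, so p-values measure only the spread between these samples. Replicates are listed below in the order of their numbers, which do not link the groups.

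LPS, a component of the outer membrane of Gram-negative bacteria, is sensed by TLR4 with its helpers CD14 and MD-2. One arm of the response runs through MyD88 to NF-kB and MAP kinases and raises inflammatory cytokines such as TNF and IL-6. The other runs through TRIF to IRF3 and interferon beta, which binds its receptor IFNAR on the same and neighbouring cells and activates ISGF3, a transcription factor complex that holds STAT2 and IRF9 and switches on interferon-stimulated genes. Macrophages are the main responding cells of the peritoneal cavity.

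The labels call the cells peritoneal macrophages, and the macrophage markers Adgre1, Csf1r and Lyz2 were among the brightest probe sets on every array. Adgre1, the F4/80 antigen, read 20353.1, 19187.3 and 20568.6 after LPS and 23163.7, 25097.8 and 23042.9 at 300 mg/kg. The deposited arrays were already scaled to a common trimmed mean, and their median signals ran from 65.1 to 84.8. The ratio of the 3' to the 5' control probe set of beta-actin, which rises as RNA breaks down or is copied incompletely, was 1.92, 5.86 and 2.17 after LPS and 6.99, 16.2 and 18.9 at 300 mg/kg. The group means were 3.32 ± 2.21 and 14.02 ± 6.24 (SD, n = 3 each), and every treated array lay above every LPS array. The same ratio for Gapdh was 4.54, 92.0 and 16.8 after LPS and 32.2, 65.0 and 179 at 300 mg/kg, and there the groups overlapped. A two-sided exact permutation test of the log2 actin ratio gave p = 0.1, the smallest value that 3 arrays against 3 allow. The actin ratio moved with the treatment, and most lists below are also given with the log2 actin ratio as a covariate in the fit. Its group mean was 9.81 at 200 mg/kg, 6.21 at 100 mg/kg and 2.94 in naive cells. Comparisons of 300 mg/kg with those groups thus also differ in this ratio.

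At 300 mg/kg, 7432 of 27022 probe sets differed from LPS alone by limma at an adjusted p under 0.05, which is 27.5%. Taking the brightest probe set of each gene, 4065 of 12817 genes did so (31.7%), with 2268 higher (17.7%) and 1797 lower (14%), and the median log2 change of all genes was 0.05. The decreases were the larger in size: 292 genes fell by at least 2 on the log2 scale and 222 rose by as much. In a bulk sample fewer cells of a type cannot be told apart from less RNA per cell, which holds for every value below. All changes are differences of log2(signal + 16) with their SE from the fit, and understate the change of dim genes.

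**Figure D1:**
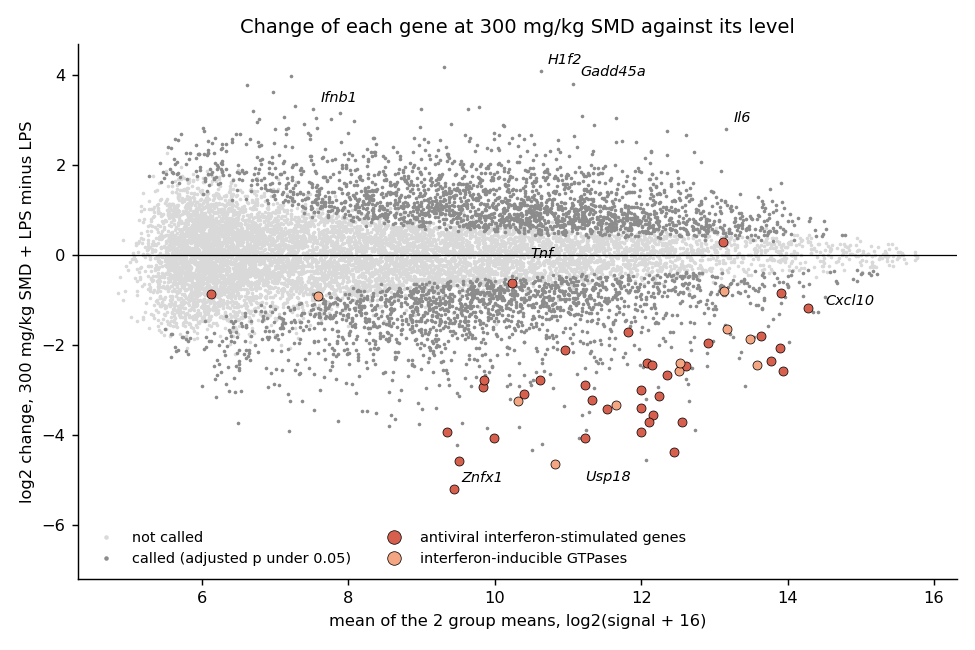
Each point is 1 of 12817 genes, at the mean of its LPS and 300 mg/kg levels (x axis, log2(signal + 16)) and its log2 change at 300 mg/kg SMD plus LPS against LPS (y axis). Dark grey points passed an adjusted p of 0.05, and the coloured points are the 36 antiviral interferon-stimulated genes and 10 interferon-inducible GTPases, nearly all of which lie below 0 across the range of levels.

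The transcript of interferon beta rose while the genes that interferon switches on fell. Ifnb1 read 36.9, 44.8 and 50.2 after LPS and 651.6, 504.9 and 504.6 at 300 mg/kg. The groups did not overlap, and the LPS arrays lay close to the filter level of 33.9. The log2 change was 3.24 ± 0.51 (SE, n = 3 each, adjusted p = 0.000122), and it was 3.22 with the actin covariate (adjusted p = 0.0099). At 200 mg/kg Ifnb1 read 158.1, 181.4 and 69.3, and the 300 mg/kg arrays were higher than these by 1.98 ± 0.51 (adjusted p = 0.0308). That difference from 200 mg/kg no longer passed without any 1 of the 3 treated arrays, or without replicate 1 or 3 at 200 mg/kg (adjusted p from 0.0572 to 0.159). The receptor chains Ifnar1 (-0.54, adjusted p = 0.0522) and Ifnar2 (0.15, adjusted p = 0.482) and the receptor kinase Tyk2 (0.05) did not pass the test, while the kinase Jak1 fell by 1.10 ± 0.18 (adjusted p = 0.0505 with the covariate).

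Of 36 antiviral interferon-stimulated genes, 33 fell and 0 rose at 300 mg/kg, beside 14% of all genes lower. Their median log2 change was -2.83. The gene lists were chosen with earlier results of these data known, so such counts are a description and no test of the list. Leaving out any 1 array kept 33 lower, and the actin covariate gave 31 lower and 1 higher. In the mean of these genes, the LPS arrays stood at 13.13, 12.93 and 13.05 (log2 level), the 300 mg/kg arrays at 10.19, 9.16 and 11.46, and the naive arrays at 9.51 and 9.56. The LPS mean was above the naive mean for 36 genes. For 14 of these the mean at 300 mg/kg was at or below the naive mean. That difference was not tested, and the same count over all genes was not made.

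Usp18, which removes ISG15 from proteins and restrains interferon receptor signalling, had one of the largest changes. Its signal was 18740.4, 21000 and 22798.3 after LPS and 451, 172.6 and 7896.1 at 300 mg/kg. Replicates 1 and 2 of the treated group lay near the naive arrays (376.1 and 332.8), whereas replicate 3 lay far above them and still below every LPS array. The log2 change was -4.55 ± 0.78 (SE, n = 3 each, adjusted p = 0.000238). Ifit3, an interferon-induced protein that takes part in antiviral defence, showed the same spread, with 23183.2, 25850.5 and 27204.3 after LPS and 1031.2, 169.2 and 9454.4 at 300 mg/kg (-4.37 ± 0.79, adjusted p = 0.000395).

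Other members fell too, Oas3 and Isg20 with less spread among the treated arrays than Usp18 and Ifit3. Oas3, an enzyme that makes the activator of RNase L in virus-infected cells, read 2682.8, 2009.2 and 2984.1 after LPS and 99.7, 142.4 and 234.4 at 300 mg/kg, below both naive arrays (266.7 and 247.4). Its log2 change was -3.93 ± 0.36 (adjusted p = 8.07e-07). Isg20, an exonuclease for single-stranded RNA, went from 16531, 12658 and 19462.8 to 815.6, 531.5 and 2518.9 (-3.93 ± 0.37, adjusted p = 1.06e-06). Neither gene's groups overlapped. Znfx1, a helicase-like sensor of viral RNA, fell from 6636.6, 2244.9 and 5051.6 to 264.3, 5.1 and 237.7 (-5.21 ± 0.70, adjusted p = 2.64e-05). Its treated replicate 2 lay below the filter level of 33.9, and its change was -3.11 with the covariate (adjusted p = 0.0176). Slfn5 (-4.58), Herc6 (-4.07), Dhx58 (-4.06), Oasl2 (-3.71), Mx1 (-3.55), Rsad2 (-2.57) and Ifit1 (-2.36) also fell. Slfn3 (-0.87), Slfn2 (-0.61) and Trim25 (0.29) did not pass the test, and Trim25 was the 1 member higher at an unadjusted p under 0.05.

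**Figure D2:**
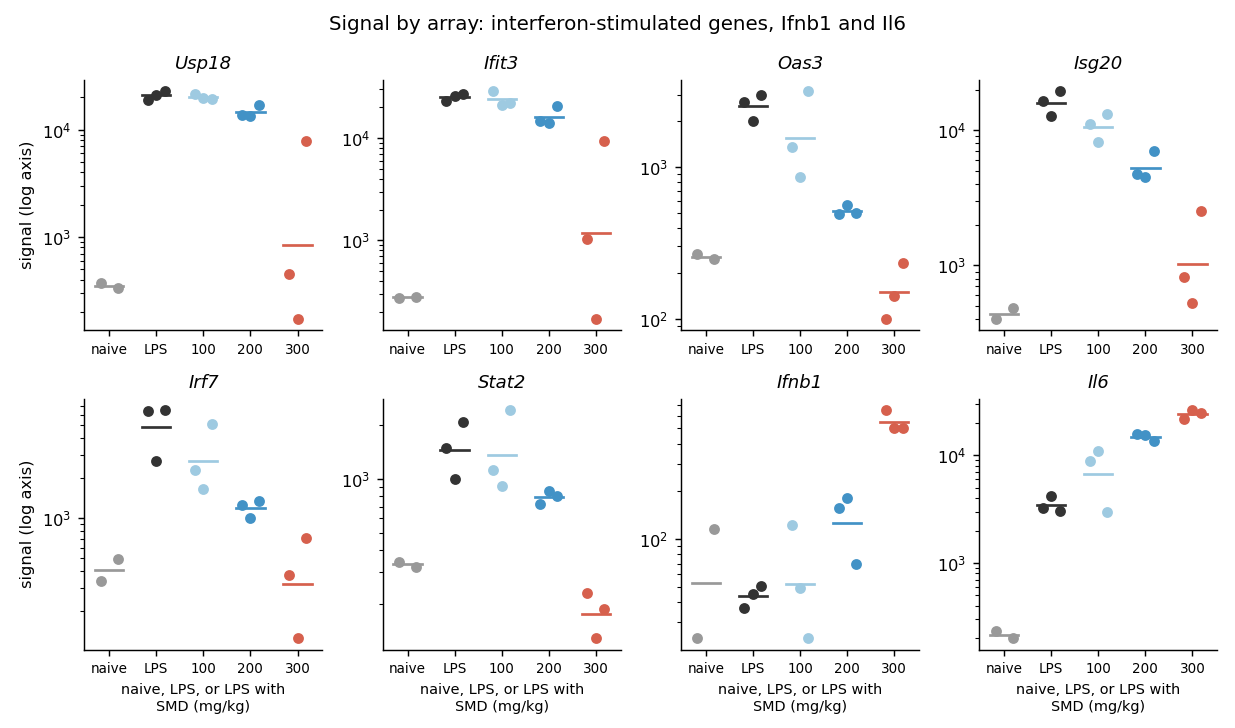
Deposited signal (y axis, log scale) of Usp18, Ifit3, Oas3, Isg20, Irf7, Stat2, Ifnb1 and Il6 on each array of the 5 groups (x axis), with 1 point per array and a bar at the group mean of the log2 signal. The 6 interferon-stimulated genes are high after LPS and low at 300 mg/kg SMD, where replicate 3 reads highest for Usp18 and Ifit3, while Ifnb1 and Il6 are highest at 300 mg/kg.

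The 3 treated arrays differed among themselves in these genes far more than the LPS arrays did. The median SD of the 36 genes was 1.15 on the log2 scale at 300 mg/kg, 0.19 after LPS and 0.24 at 200 mg/kg. Replicate 3 was the highest treated array for 34 of the 36 genes and replicate 2 the lowest for 30. Replicate 3 also had the highest actin ratio of the treated arrays, 18.9. LPS replicate 2 and treated replicate 1 had near actin ratios, 5.86 and 6.99, with Gapdh ratios of 92.0 and 32.2, and their means over the list were 12.93 and 10.19. That pair was not a planned comparison, and the part of RNA quality in these values was not tested. The genes with the widest spread at 300 mg/kg included Usp18, Ifit3, Mx1, Cmpk2, Ifit2 and Slfn8. The LPS and 300 mg/kg arrays did not overlap for 33 of the 36 genes, beside 42.5% of all genes.

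Stat2, Irf7 and Irf9 fell at 300 mg/kg. Stat2, the activating subunit of ISGF3, read 1492, 1002.5 and 2086.7 after LPS and 228.3, 128 and 185.5 at 300 mg/kg, lower than both naive arrays (342.5 and 321.8), with a log2 change of -2.94 ± 0.32 (adjusted p = 3.94e-06). Irf7, which amplifies interferon production, went from 6446.1, 2698.5 and 6514 to 376.9, 125.8 and 706.2 (-3.83 ± 0.47, adjusted p = 1.11e-05). Irf9, the subunit that recognises the DNA motif, fell by 1.93 ± 0.26. For none of the 3 genes did the groups overlap. Of 19 genes of interferon production and signalling, 3 rose and 11 fell (median -0.93), beside 17.7% and 14% of all genes. With the actin covariate 2 rose and 4 fell. Irf2, which can oppose IRF1, rose by 0.83 (adjusted p = 0.257 with the covariate).

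Interferon-inducible GTPases, which attack the vacuoles of intracellular microbes, fell in 9 of 10 cases (median -2.42), beside 14% of all genes lower. When any 1 array was left out, 9 to 10 fell. Iigp1 read 9727.1, 9748.5 and 7802.9 after LPS and 238.4, 95.5 and 1638.3 at 300 mg/kg, with naive arrays at 798.2 and 745.7. The groups did not overlap and the log2 change was -4.65 ± 0.58 (adjusted p = 1.17e-05). Igtp (-2.58), Ifi47 (-2.43), Irgm1 (-2.40) and Gbp2 (-1.87) fell as well. Gbp8 (-0.91, adjusted p = 0.11) did not pass the test.

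Genes of the immunoproteasome and of peptide loading onto MHC class I fell in 9 of 11 cases (median -1.49), beside 14% of all genes lower. With the actin covariate 5 fell and the median was -0.61. Psmb8, a catalytic subunit that replaces its constitutive counterpart, went from 9914, 7910 and 12417.5 to 3085.9, 2210.9 and 2687, below both naive arrays (5422.5 and 5468.9) and with no overlap. Its log2 change was -1.90 ± 0.19 (adjusted p = 1.4e-06). Nlrc5, the transactivator of MHC class I genes (-2.50 ± 0.25), Psmb10 (-2.36), the peptide transporter gene Tap1 (-1.94) and Psmb9 (-1.88) fell too. The mean at 300 mg/kg was at or below the naive mean for 7 of the 11 genes. That difference was not tested, and the same count over all genes was not made. The aminopeptidase Erap1 (-0.20) and the MHC class I light chain B2m (-0.01) did not pass the test. Of 26 constitutive proteasome subunits, 10 fell and 0 rose with a far smaller median of -0.26, led by Psmd1 (-1.34), Psmc5 (-1.17) and Psma4 (-1.12), and 8 fell with the covariate, under which Psmc5 no longer passed (adjusted p = 0.25).

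The DNA element that ISGF3 binds was looked for in the promoters, since the genes that fell are its known targets. RefSeq promoter windows of 300 bases (250 before to 50 after the transcription start, GRCm38.p6) were searched on both strands for the core of the interferon-stimulated response element, which is GAAA, any 2 bases and GAAA again, or TTTC, any 2 bases and TTTC on the other strand. Of 32851 windows 1131 held it, which is 3.44%. By gene, it was found for 382 of 10364 tested genes with a window (3.69%), 96 of 1486 genes called lower (6.46%) and 64 of 1835 called higher (3.49%). Windows of 10 of 28 antiviral genes, 6 of 7 GTPases and 3 of 8 genes of the immunoproteasome list held it. These counts take in members whether or not they fell. The antiviral and GTPase lists were made of interferon-induced genes, so their high shares were likely in advance and are no test. Members of these lists are also among the genes called lower and add to that share. A match describes the letters and not a bound site. Isg20, Irf7, Irf9, Znfx1, Herc6, Ifit2 and Psmb8 fell and have windows without it. Usp18, Iigp1 and Mx1 fell and had no window to search. The sequences below show it, in capitals, in 6 genes that fell and in Mapk14, which rose and holds it too; each runs 5' to 3' on the gene's own strand.
Ifit3, chr19:34583358-34583397, + strand: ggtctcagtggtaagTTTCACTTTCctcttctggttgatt
Oas3, chr5:120777710-120777749, - strand: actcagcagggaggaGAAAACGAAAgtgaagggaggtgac
Stat2, chr10:128270261-128270300, + strand: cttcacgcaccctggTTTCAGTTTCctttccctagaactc
Igtp, chr11:58199507-58199546, + strand: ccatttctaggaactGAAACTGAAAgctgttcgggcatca
Gbp2, chr3:142620589-142620628, + strand: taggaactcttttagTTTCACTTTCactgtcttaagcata
Cxcl10, chr5:92349078-92349117, - strand: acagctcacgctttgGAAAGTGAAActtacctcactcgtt
Mapk14, chr17:28692524-28692563, + strand: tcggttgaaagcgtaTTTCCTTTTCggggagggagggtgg
In Oas3 the capitals begin 75 bases before the start, in Gbp2 59 and in Igtp 34, and in Ifit3, Stat2 and Cxcl10 they lie further out, at 156, 222 and 213 bases. In Ifit3 a second match begins 122 bases before the start.

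The interferon-stimulated genes were lower at 300 mg/kg than at the lower doses. Tested directly, 30 of the 36 antiviral genes were lower at 300 than at 200 mg/kg, beside 3.99% of all genes lower in that comparison, with a median difference of -2.08. This count was 20 without replicate 3 at 200 mg/kg, 21 without treated replicate 2 and 10 in a fit without a variance trend. Against 100 mg/kg, 34 were lower, beside 9.36% of all genes, with a median of -2.65. Usp18 read 13633.3, 13330.3 and 16978.2 at 200 mg/kg and changed by -4.04 ± 0.78 from there to 300 mg/kg (adjusted p = 0.00541). Stat2 changed by -2.07 ± 0.32 (adjusted p = 0.00216). The GTPases were lower than at 200 mg/kg in 9 of 10 cases, in 6 without treated replicate 2, in 5 without replicate 3 at 200 mg/kg and in 1 in the fit without a variance trend. The immunoproteasome list was lower in 3 of 11 cases, and in 1 without treated replicate 2 or without replicate 1 or 2 at 200 mg/kg. Set against LPS, 200 mg/kg gave 1 antiviral gene higher and 14 lower, beside 9.03% and 5.92% of all genes, and a median of -0.66. At 100 mg/kg 0 genes passed the limma test against LPS (0%), with 1276 of 12817 at an unadjusted p under 0.05. These comparisons with LPS share its 3 arrays.

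Over all genes, 859 of 12817 differed between 300 and 200 mg/kg (6.7%), 348 of them higher (2.72%) and 511 lower, and 2756 differed between 300 and 100 mg/kg (21.5%), with 1556 higher (12.1%). The count of probe sets between 300 and 200 mg/kg was the least stable. It was 1370 (5.07%) with all arrays, 381 without treated replicate 2, 492 without replicate 3 at 200 mg/kg and 732 without replicate 1 at that dose. The largest increases over 200 mg/kg included Marveld1 (2.29 ± 0.43), Rab7b (2.17 ± 0.56), which encodes a small GTPase of late endosomes, Kank2 (2.00 ± 0.34) and Ifnb1. The call of Rab7b ended without treated replicate 1 or 2 (adjusted p = 0.112 and 0.106) and without replicate 3 at 200 mg/kg (adjusted p = 0.136). Kank2 read 198.7, 190.6 and 117.1 after LPS, 208.1, 161.3 and 91.9 at 200 mg/kg and 568.2, 927.8 and 479.1 at 300 mg/kg, so its rise was seen at the top dose and not at 200 mg/kg (-0.15 ± 0.34 against LPS, adjusted p = 0.826). Lipg, on no interferon list, was also lower than at 200 mg/kg (-3.57 ± 0.56), as was Itgb8, for which treated replicates 1 and 2 lay below the filter level.

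Inflammatory cytokine genes did not move as a block. Of 16, 2 rose and 6 fell (median -0.73), beside 17.7% and 14% of all genes, and 1 rose and 3 fell with the actin covariate. Il6, the inducer of the acute phase response, read 3218.5, 4165.2 and 3061.6 after LPS and 21677, 26130.2 and 24816.3 at 300 mg/kg. The groups did not overlap, and the log2 change was 2.80 ± 0.31 (adjusted p = 4.03e-06) and 1.80 with the covariate (adjusted p = 0.0016). Il6 at 300 mg/kg was higher than at 100 mg/kg by 1.86 ± 0.31 (adjusted p = 0.000357), and its difference from 200 mg/kg, 0.71 ± 0.31, did not pass (adjusted p = 0.222). Il1a also rose, by 1.29 ± 0.36 (adjusted p = 0.0121), from 3335.6, 5612.9 and 3424.9 to 8446.7, 9706.7 and 11434.5. Its call ended without LPS replicate 1 (adjusted p = 0.0578) or 3 (adjusted p = 0.0536) or without a variance trend (adjusted p = 0.0598), and its change was 0.09 with the covariate.

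Tnf, the early TLR4-induced cytokine, read 1566, 1331.3 and 1418.9 after LPS and 1872.9, 1011.4 and 956.1 at 300 mg/kg. The groups overlapped, and the change of -0.23 ± 0.28 did not pass (adjusted p = 0.605). Il1b (-0.35 ± 0.21, adjusted p = 0.24) and Il12b (-0.95, adjusted p = 0.277) did not pass either. Il15, which sustains NK and memory T cells and is itself induced by interferon, fell from 3743.6, 4502.1 and 3659.1 to 219.4, 289 and 1342.3, a log2 change of -3.11 ± 0.44 (adjusted p = 4.36e-05) with no overlap. Tnfsf10, the death ligand TRAIL, fell by 3.52 ± 0.65 and Il18 by 0.78 ± 0.17. The growth factor genes Csf3 (-1.77) and Csf1 (-1.42) fell, and neither passed with the covariate (adjusted p = 0.57 and 0.4).

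Among 23 chemokine genes 7 fell and 0 rose, beside 14% and 17.7% of all genes. Their median was -0.10, and 7 fell with the covariate. The number that rose was 2 without naive replicate 1 or without naive replicate 2, 1 without treated replicate 2, 2 with a pseudocount of 64 and 3 after quantile normalization. At an unadjusted p under 0.05, 8 were lower and 1, Ccl3, higher. The ligands of CXCR3, which draw activated T and NK cells, were among the largest. Cxcl9 read 1541.3, 2043.1 and 1899.5 after LPS and 129.5, 30.7 and 358.3 at 300 mg/kg (-3.75 ± 0.49, adjusted p = 2.14e-05). Cxcl11 went from 7685.1, 7437.1 and 9017.5 to 749.3, 251.5 and 1547 (-3.55 ± 0.40, adjusted p = 4.58e-06). Cxcl10 kept a high signal, with 32630.9, 34154.3 and 34495.2 after LPS and 14586.7, 9484.7 and 20054.8 at 300 mg/kg (-1.26 ± 0.26, adjusted p = 0.00126). No CXCR3 ligand overlapped between the groups. Ccl7 (-2.17), Ccl5 (-2.16) and Ccl22 (-1.93) fell too, the last not with the covariate (adjusted p = 0.066). The neutrophil attractants Cxcl1 (0.25) and Cxcl2 (0.25) and the macrophage inflammatory proteins Ccl3 (0.45, adjusted p = 0.081) and Ccl4 (-0.11) did not pass.

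**Figure D3:**
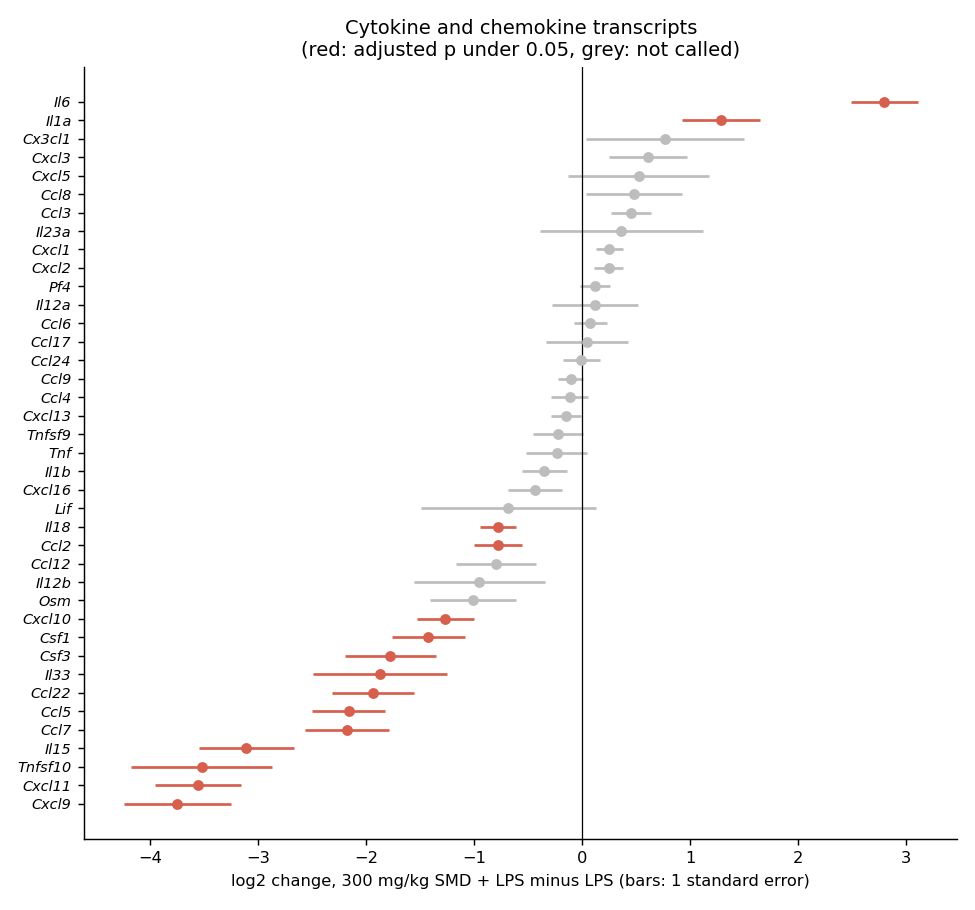
Log2 change at 300 mg/kg SMD plus LPS against LPS (x axis, with SE from the fit as bars) of each tested cytokine and chemokine gene (y axis), in red for those past an adjusted p of 0.05 and grey for the others. Il6 lies at 2.80 and Il1a at 1.29, while Cxcl9, Cxcl11, Tnfsf10 and Il15 lie below -3 and Tnf, Il1b, Cxcl1 and Cxcl2 lie near 0.

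Regulators that restrain inflammation were split, with 3 of 15 higher and 6 lower, beside 17.7% and 14% of all genes. Il10, the anti-inflammatory cytokine, rose from 876.4, 872.7 and 707.5 to 1878.6, 1757.4 and 1777.4 (1.13 ± 0.28, adjusted p = 0.00458) without overlap, and did not pass with the covariate (0.84, adjusted p = 0.2). Il1rn, the secreted antagonist of the IL-1 receptor, fell from 22452.1, 21598.5 and 24397.5 to 6038, 2136.1 and 7670 (-2.30 ± 0.30, adjusted p = 1.83e-05), also without overlap. Maf, a transcription factor that drives Il10 (-1.99 ± 0.18), Tnip1 (-1.33 ± 0.14), Tnip2 (-1.64) and Irak3 (-1.32), which dampen TLR signalling, fell. The feedback genes Tnfaip3 (0.22), Nfkbia (-0.09), Dusp1 (0.09), Zfp36 (0.02) and Socs3 (0.01) did not pass.

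Of 17 genes of the LPS receptor and its adaptors, 2 rose and 5 fell, beside 17.7% and 14% of all genes. With the covariate 1 rose and 3 fell. Ikbke, the kinase that joins TBK1 in activating IRF3, fell from 4619.9, 1845.8 and 3756.2 to 492.6, 294.4 and 522.1 (-2.86 ± 0.42, adjusted p = 5.68e-05), with no overlap. The adaptor gene Myd88 fell by 1.12 and Lbp by 1.06, and Irak1 rose by 0.98; none of the 3 passed with the covariate (adjusted p = 0.15, 0.051 and 0.34). Cd14 changed by -0.41 ± 0.10 (adjusted p = 0.00556, 0.074 with the covariate and 0.0655 without a variance trend), from 43631.7, 42760.8 and 46208.9 to 33177.3, 30719.5 and 35888.2. Tlr4 did not pass (-0.27, adjusted p = 0.668), but passed as lower with the covariate (-1.59, adjusted p = 0.0183).

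Transcription factor families downstream of TLR4 held changes in both directions. Rel, which encodes the NF-kB subunit c-Rel, rose from 674.8, 794.9 and 757.2 to 3836.8, 4028.6 and 2913.8 (2.24 ± 0.22, adjusted p = 1.3e-06), and Maff, a small MAF factor, from 274.5, 344.7 and 327.9 to 2293.5, 2124.1 and 1444.6 (2.55 ± 0.24, adjusted p = 1.23e-06). Batf2, an interferon-induced partner of JUN proteins, fell from 1758.1, 937.1 and 1310.2 to 42.7, 67.6 and 262.9 (-3.56 ± 0.42, adjusted p = 6.64e-06). None of these overlapped between the groups. Of 14 NF-kB family genes 4 rose and 5 fell, a count of lower genes that became 3 without LPS replicate 1, and 1 rose and 0 fell with the covariate. Of 15 AP-1 and ATF genes 4 rose and 4 fell, or 4 and 2 with the covariate. Both families stand beside 17.7% of all genes higher and 14% lower.

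Among 20 immediate early genes 5 rose and 4 fell against LPS, beside 17.7% and 14% of all genes. Klf6, a zinc finger factor induced by stress, rose from 2553.1, 2990.6 and 2686.9 to 10551.3, 10062.6 and 8878.2 (1.83 ± 0.16, adjusted p = 5.13e-07) and was above 200 mg/kg by 1.15 ± 0.16 (adjusted p = 0.00141). Egr1 (1.34 ± 0.20) and Id2 (1.16 ± 0.14) rose, while Id1, which blocks basic helix-loop-helix factors, fell by 3.91 ± 0.55 and Ier3 by 1.07 ± 0.14. At 300 against 200 mg/kg, 6 of the 20 were higher and 1 lower, beside 2.72% and 3.99% of all genes, and 1 was higher without treated replicate 2 or without replicate 3 at 200 mg/kg, and 3 without treated replicate 3. Of 18 MAP kinase and phosphatase genes 6 rose and 4 fell against LPS, beside the same 17.7% and 14%, or 1 and 4 with the covariate. Mapk14, the p38 alpha kinase, rose from 1218.5, 1477.7 and 1619.8 to 6001.4, 5933 and 4829.7 (1.95 ± 0.18, adjusted p = 7.71e-07), a level like that of the naive arrays (5264.1 and 4796.1), and Dusp2, a phosphatase that acts on MAP kinases, fell by 2.22 ± 0.30.

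The largest increases included genes that rose above both LPS and naive cells. H1f2, a linker histone, read 395.3, 377.7 and 329.9 after LPS and 6081.5, 8164.5 and 5539.5 at 300 mg/kg, above both naive arrays (1959.1 and 1621.4), with a log2 change of 4.09 ± 0.27 (adjusted p = 7.76e-08). Gadd45a, a stress-induced growth arrest gene, went from 514.8, 771.7 and 426.4 to 6846.2, 9993.3 and 7567.9 (3.82 ± 0.30, adjusted p = 2.86e-07), also above the naive arrays (806.2 and 661.3). Both were higher than at 200 mg/kg, H1f2 by 1.55 (adjusted p = 0.00305) and Gadd45a by 1.32 (adjusted p = 0.0163). The latter difference did not pass without treated replicate 2 (adjusted p = 0.111) or replicate 3 at 200 mg/kg (adjusted p = 0.104). For neither gene did the groups overlap.

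Other large increases were in genes that read below their naive level after LPS. Marveld1, a membrane and nuclear protein, read 163.6, 151.7 and 90.7 after LPS, 3205.2, 3356.4 and 1795.3 at 300 mg/kg and 6687.2 and 5761.7 in naive cells (4.19 ± 0.43 against LPS, adjusted p = 2.01e-06); 2 dimmer probe sets for this gene did not pass (0.96 and -0.92). Cav2, a caveolin, went from 316.3, 374.8 and 153.9 to 2196.8, 3491.3 and 2671.9, with naive arrays at 3573.1 and 3375.3 (3.29 ± 0.30, adjusted p = 7.46e-07). Rassf3, a Ras association domain protein, rose by 3.26 ± 0.26. These 3 genes lay below the naive arrays after LPS, and the groups at 300 mg/kg and LPS did not overlap. Asz1 rose by 3.25, and a dimmer probe set for this gene did not pass (-0.12, adjusted p = 0.921). Mdm1, Pxdc1, Hnmt, Pdzd2 and 4933417E11Rik passed the test as higher too, but at least 2 of the 3 LPS arrays of each lay below the filter level of 33.9, so no size is given for them. Of these, Hnmt, which inactivates histamine, did not pass with the covariate (adjusted p = 0.0985), and another probe set for Mdm1 did not pass (0.43, adjusted p = 0.615).

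Of 10 p53 target genes 5 rose and 1 fell, beside 17.7% and 14% of all genes, with a median of 0.59, and these counts held when any 1 array was left out. Sesn1, a sestrin that restrains mTORC1, read 893.6, 1045.3 and 925.8 after LPS and 3955.1, 6529.9 and 5237.8 at 300 mg/kg, with no overlap (2.41 ± 0.21, adjusted p = 5.13e-07). Trp53inp1 (1.82), Plk2 (1.06), Mdm2 (0.82) and Ccng1 (1.13) rose, the last not with the covariate (0.14, adjusted p = 0.82). Aen, a nuclease induced by p53, fell by 2.07, and Cdkn1a, the p21 gene, did not pass (0.30). Pmaip1, the BH3-only protein NOXA, rose from 912.4, 806.9 and 839.2 to 5579, 6470.9 and 4443.9 without overlap (2.65 ± 0.25, adjusted p = 1.06e-06). Of 18 BCL2 family and death genes 5 rose and 5 fell, with Bcl2l11, which encodes BIM, higher by 0.84 and Mlkl, the executioner of necroptosis, lower (-2.91 ± 0.25); the count of lower genes was 3 without treated replicate 2, and 2 rose and 3 fell with the covariate.

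**Figure D4:**
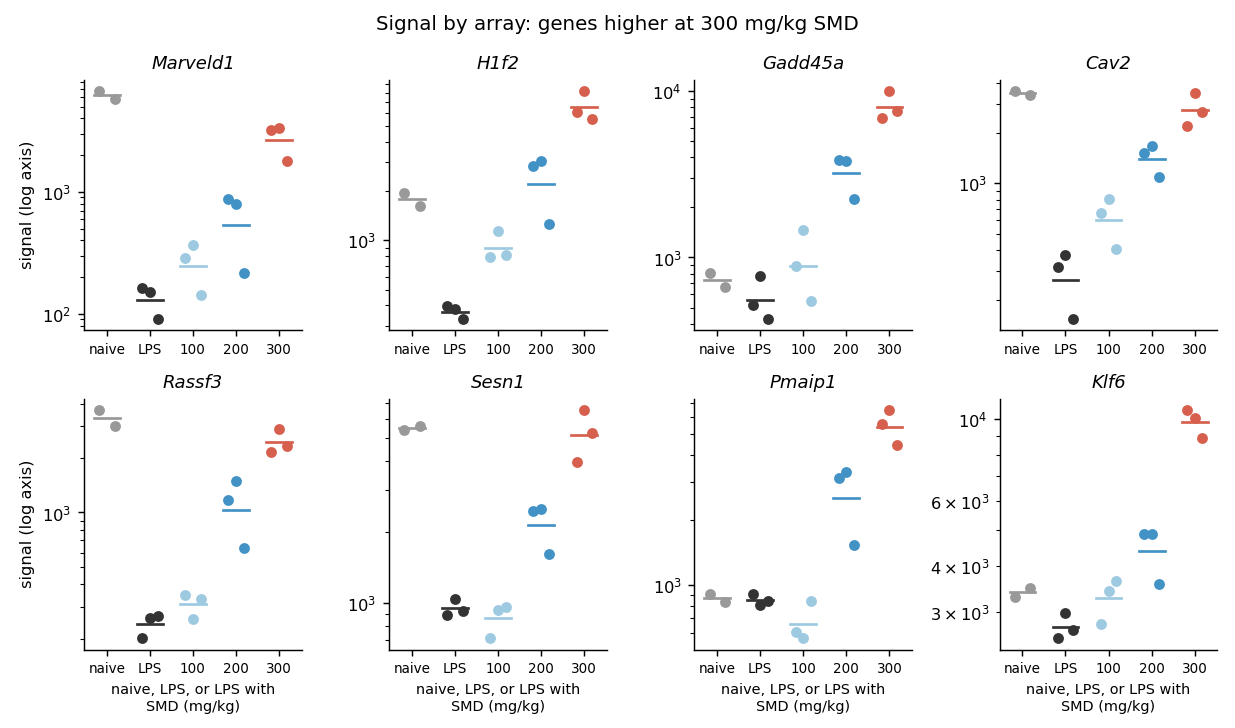
Deposited signal (y axis, log scale) of Marveld1, H1f2, Gadd45a, Cav2, Rassf3, Sesn1, Pmaip1 and Klf6 on each array of the 5 groups (x axis), with 1 point per array and a bar at the group mean of the log2 signal. Every array at 300 mg/kg lies above every LPS array for these genes, and for H1f2, Gadd45a, Pmaip1 and Klf6 also above both naive arrays.

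Lipg, Timp1, Fcgr1 and Saa1, none of them on the interferon lists, had decreases as large as the interferon-stimulated genes. The lists are not complete, and whether interferon induces these genes was not tested. Lipg, endothelial lipase, fell from 6648.7, 5885.2 and 7065.8 to 132.7, 133.4 and 1499.9 (-4.34 ± 0.56, adjusted p = 1.58e-05). Timp1, an inhibitor of matrix metalloproteinases, went from 3156.9, 2271 and 4024.1 to 61, 119.7 and 411.6 (-4.23 ± 0.43, adjusted p = 1.92e-06). Fcgr1, the high-affinity receptor for IgG, went from 7543.4, 5455.4 and 7793.1 to 201.7, 291 and 762.6 (-4.20 ± 0.32, adjusted p = 2.62e-07). Replicate 3 was the highest treated array for each, and none overlapped with LPS. Saa1, an acute phase protein, fell by 4.07 ± 0.46. Lcn2, which sequesters bacterial siderophores, fell by 2.77 ± 0.22, and Ch25h, an interferon-inducible enzyme that oxidises cholesterol, changed by -3.85 ± 0.60.

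Stress pathways were mixed. Of 23 NRF2 targets 5 rose and 2 fell (median 0.40), beside 17.7% and 14% of all genes, with 8 higher without treated replicate 2 and 7 with the covariate. Srxn1, sulfiredoxin, read 322.4, 298.8 and 551.7 after LPS and 5654, 1237.4 and 2463.9 at 300 mg/kg (2.73 ± 0.39, adjusted p = 4.62e-05), did not overlap, and differed from 200 mg/kg by 0.00 ± 0.39 (adjusted p = 0.998). Gclm, of glutathione synthesis (1.67), and Cat, catalase (0.99), rose, whereas Keap1, the inhibitor of NRF2, fell by 2.16. Nfe2l2, the NRF2 gene itself, fell by 0.83 by its brightest probe set and rose by 3.48 by a dimmer one, so its probe sets disagree. Hmox1, heme oxygenase, did not pass (0.85, adjusted p = 0.0922), but passed with the covariate (1.63, adjusted p = 0.0300).

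Of 18 heat shock and co-chaperone genes 4 rose and 5 fell, beside 17.7% and 14% of all genes. With the covariate 2 rose and 4 fell, and without LPS replicate 1 the lower count was 3. Dnajb4 (2.58 ± 0.27) and Hspa4l (1.71) rose and Hspd1, the mitochondrial chaperonin, fell by 1.08; Hspa1b (2.24) and Hspa1a (2.03) are near-identical copies whose probes cannot separate them, and neither passed with the covariate (adjusted p = 0.058 and 0.11). Of 19 endoplasmic reticulum chaperone genes 4 rose and 6 fell, or 2 and 1 with the covariate, and Canx, calnexin, rose by 1.06 ± 0.12.

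The ATF4 response to amino acid shortage had 12 of 19 genes lower and 3 higher (median -0.83), beside 14% and 17.7% of all genes. The lower count was 7 without LPS replicate 1, and the covariate gave 5 lower and 2 higher. Asns, asparagine synthetase, fell from 1190.5, 885.8 and 1233 to 287.1, 178.9 and 471.1 (-1.85 ± 0.29, adjusted p = 9.41e-05) without overlap. Atf4 itself fell by 1.18 ± 0.17, and the amino acid transporter gene Slc7a5 by 2.91 ± 0.48, the latter not with the covariate (-1.73, adjusted p = 0.0731). Gadd45a and Ppp1r15a (1.99), on the same list, rose. Of 14 metallothionein and metal transport genes 2 rose and 6 fell, beside 17.7% and 14% of all genes. The lower count ran from 4 to 6 with 1 array left out, and 3 rose and 5 fell with the covariate. The zinc importers Slc39a14 (-2.88) and Slc39a10 (-1.39) were lower, and the zinc exporter Slc30a1 (1.56) and the copper pump gene Atp7a (1.68) higher. A dimmer probe set for Atp7a did not pass (-0.11, adjusted p = 0.862).

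Of 19 glucocorticoid-responsive genes 7 rose and 5 fell, with Rgs2 (2.48 ± 0.29), a brake on G protein signalling, and Klf9 (1.73) higher and Cebpd (-2.48 ± 0.23) and Lcn2 lower. The number higher was 4 without LPS replicate 1 or without LPS replicate 2, and 3 rose and 3 fell with the covariate. In the prostaglandin and leukotriene list 5 of 16 rose and 2 fell. This list and the glucocorticoid list stand beside 17.7% of all genes higher and 14% lower. Ptgs2, which encodes COX-2, rose from 2002.9, 2398.6 and 1809.5 to 5155.6, 4485.6 and 5113.5 (1.25 ± 0.27, adjusted p = 0.00191), and Ptges, the inducible synthase one step later in the making of prostaglandin E2, fell from 7683.4, 10215.8 and 7062.5 to 2171.4, 775.6 and 2125.6 (-2.41 ± 0.28, adjusted p = 6.9e-06). Neither overlapped. Ptgs2 did not pass with the covariate (0.77, adjusted p = 0.21) or with a pseudocount of 1 (adjusted p = 0.0789).

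In glycolysis and the hypoxia response 3 of 16 genes rose and 3 fell, beside 17.7% and 14% of all genes. Pfkfb3, which makes the activator of phosphofructokinase, fell from 18404.4, 17452.9 and 17965.3 to 3290.9, 1810.3 and 5785.3 (-2.46 ± 0.26, adjusted p = 2.93e-06) with no overlap, and differed from 200 mg/kg by -1.89 ± 0.26 (adjusted p = 0.00143). Hk2, a hexokinase, fell by 1.51 and Pdk1, a kinase that inhibits pyruvate dehydrogenase, rose by 1.40. Lipid handling had 4 of 18 higher and 2 lower, antimicrobial effectors 1 of 18 higher and 5 lower, and genes of antigen presentation by MHC class II and costimulation 2 of 11 higher and 1 lower. The last list had 1 higher and 4 lower without LPS replicate 2, and its median went from -0.25 to 0.45 with the covariate. Arg1, arginase (1.71 ± 0.30), and Cd80 (2.55 ± 0.28), a ligand of CD28, rose, and Cd40 fell by 1.84 ± 0.17. The lower count of the antimicrobial list was 3 without treated replicate 2.

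Housekeeping lists stood beside the same 17.7% of all genes higher and 14% lower. Genes of cell division and DNA replication had 3 of 24 higher and 1 lower, with 6 higher without replicate 3 at 100 mg/kg, 5 without replicate 1 at that dose and 1 without treated replicate 2. The mitochondrial respiratory chain had 5 of 27 higher and 5 lower, or 1 and 1 with the covariate, and 3 and 3 without any one of LPS replicates 1 and 3 and treated replicates 2 and 3. Cytosolic ribosomal proteins had 3 of 22 higher and 5 lower, or 1 and 0 with the covariate. None of the 22 was lower once arrays were scaled to a common median, without a variance trend, or without LPS replicate 3 or treated replicate 2 or 3. Genes of mRNA decay and RNA regulation had 4 of 16 higher and 3 lower, or 1 and 2 with the covariate. N4bp1, an interferon-induced RNase, fell by 1.94 ± 0.21 and Ccnd1, cyclin D1, rose by 1.67 ± 0.28.

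**Figure D5:**
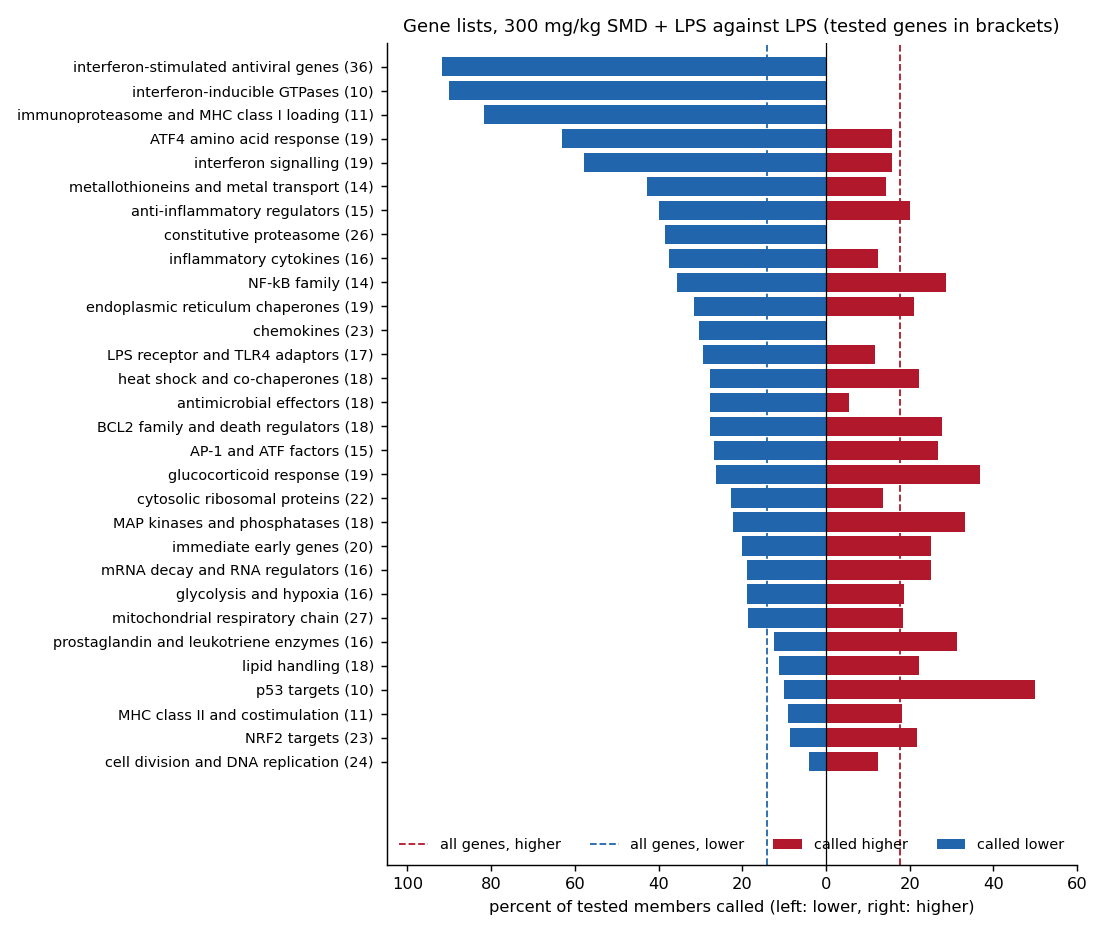
Percent of the tested genes of each list (y axis, number tested in brackets) that passed an adjusted p of 0.05 at 300 mg/kg SMD plus LPS against LPS, lower to the left and higher to the right (x axis). Dashed lines mark 14% of all genes lower and 17.7% higher, and the antiviral genes, GTPases and immunoproteasome lists reach furthest to the left, with 33 of 36, 9 of 10 and 9 of 11 lower.

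Markers of the cells that a peritoneal sample can hold were read in the same way. Of 23 markers of resident peritoneal macrophages 5 rose and 2 fell (median 0.00), beside 17.7% and 14% of all genes. The number higher was 2 without LPS replicate 1 or treated replicate 2 and 1 in the fit without a variance trend, and the number lower ran from 0 to 3 with 1 array left out. Garnl3, Mertk (0.77), Vsig4 (0.59), Ltbp1 (0.53) and Timd4 (0.44) were higher, and Itgam (-1.61) and Selp (-0.44) lower. With the covariate Garnl3 kept its call (adjusted p = 0.0448). Vsig4 (0.09, adjusted p = 0.824), Ltbp1 (0.31, adjusted p = 0.318) and Itgam (0.45, adjusted p = 0.519) did not pass with it. Csf1r (0.23), Adgre1 (0.25), Cd68 (-0.07) and Lyz2 (-0.14) did not pass in the main fit. Of 14 B cell markers 5 rose and 0 fell, or 3 without LPS replicate 1, and the list's mean level was 10.90 ± 0.07 after LPS, 11.34 ± 0.22 at 300 mg/kg and 11.68 in naive cells. Ebf1, the B lineage factor, rose by 1.88 ± 0.22 and the complement receptor gene Cr2 by 1.77. Of 15 T and NK cell markers 4 rose and 1 fell, with Thy1 (2.36 ± 0.34), Cd3g (1.56) and Cd3e (2.17) higher and Gzmb, granzyme B, lower (-2.58 ± 0.30). Of 12 neutrophil markers 3 rose and 2 fell, of 11 mast cell markers 3 and 2, of 3 eosinophil markers 1 and 0, and of 6 monocyte and dendritic cell markers 2 and 1. Ccr2, the monocyte chemokine receptor, rose by 1.56 ± 0.27, S100a8 by 1.05 and S100a9 by 1.07, and the last pair did not pass with the covariate (adjusted p = 0.14 and 0.28). Markers in the same lists were also lower: Cd209a, a lectin of dendritic cells, changed by -1.91 (adjusted p = 3.36e-05, and 0.0165 with the covariate), and Csf3r, the G-CSF receptor gene of neutrophils, by -1.36 (adjusted p = 0.00124, and 0.496 with the covariate). Of the markers of mesothelial cells and fibroblasts (10 tested), red cells (3) and platelets (8), 0 passed the limma test, and 2, the red cell genes Alas2 and Slc4a1, had an unadjusted p under 0.05. The part of these cell types in the changes above was not tested.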

How the data were processed

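RNA from peritoneal cells was hybridised to 14 one-colour Affymetrix mouse arrays. The deposited value of each probe set is an intensity made by the authors with MAS5, per the submitters' processing notes (no version is named there), and each deposited column has a trimmed mean of 500 with 2% trimmed at each end. Scanner files were not used here, and precision is limited by how many arrays each group has.

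Each intensity was taken as log2(signal + 16). Dim probe sets were removed, those in the bottom 40% by average level (a signal of about 33.9). A linear model of 5 group means, with a variance trend, was fitted in limma 3.58.1 (R 4.3.3) using every array, so that the groups share 1 estimate of the spread, and p-values were adjusted by Benjamini-Hochberg over 27022 probe sets. Called means an adjusted p under 0.05. The fit was tested on simulated data with known changes. Probe sets were named from the platform annotation: 34945 had 1 gene symbol, 932 several and 9160 none, and only the first were named; 34741 symbols were updated by Entrez number with the RefSeq table of GRCm38.p6 and 204 kept as given. A gene is represented by its probe set with the highest mean; of 5704 genes with several tested probe sets, 190 had calls in both directions.

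The genes named are 12 set cytokine and receptor genes, the 12 largest increases and decreases whose groups do not overlap, up to 4 members of each gene list with the smallest p, the 5 largest differences from each other dose (both among genes whose higher group lies at or above the median level), and the 8 with the widest spread among treated arrays; other list members named, and genes given as not passing, were picked after their values were seen. Nos2 was below the filter. The members and gene lists were chosen with earlier results of these data known. Alternatives were 2 other pseudocounts (1 and 64), no filter and a 60% filter, quantile normalization, median scaling, the 2 compared groups alone, array weights, no variance trend, 1 probe set per gene, the log2 actin ratio as a covariate, a replicate block, and each array left out in turn.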

Additional observations from a re-analysis of the deposited data

How the results depend on the processing

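The count of probe sets called between 300 mg/kg and LPS (7432) was 4225 with 1 probe set per gene, where fewer features are tested, and 3384 with the actin ratio as a covariate, 2740 of them shared, and the cause of that drop was not tested; leaving out 1 array gave 5460 to 7949. Against 200 mg/kg (1370) it was 375 without a variance trend, 2284 with the covariate and 381 to 1738 with 1 array left out. Against 100 mg/kg (4794) it was 2950 with 1 probe set per gene, and 3078 without treated replicate 2, the lowest when 1 array was left out; the highest was 5078. The other settings kept these counts within 1.5 times. The log2 actin ratio was higher at 300 mg/kg by 2.15, and by 1.85 to 2.66 with 1 array left out. Of 175 named genes called, 161 kept their call in every setting other than the covariate, and 125 kept it with the covariate.

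Signs turned for genes that were not called or that 1 setting decides: Tnf (0.12), Cd74 (0.33), Itgam (0.45), Siglecf (1.35) and Hba-a1 (-1.33) with the covariate, and, over the fits with 1 array left out, Tlr4 (-0.73 to 0.034, above 0 without LPS replicate 2 or treated replicate 1), Siglecf (-0.93 to 0.012, above 0 without LPS replicate 3), Flt3 (-1.24 to 0.14, above 0 without treated replicate 3) and Itgb3 (-0.011 to 0.73, below 0 without LPS replicate 2). Itgam was called lower in the full fit.

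Replicate numbers recur in the groups but arrays of the same number did not deviate together (correlations from -0.13 to 0.18), so they were not treated as pairs. A replicate block gave 7362, 1347 and 4726 probe sets in the 3 comparisons. With 3 arrays a group, MAS5 signals near the filter level, such as those of Ifnb1 after LPS, are known poorly, and the actin ratio cannot be told apart from the treatment in full.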
